A study of Mus musculus with 162 samples.

Results

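The Slc2a genes encode the facilitative sugar transporters, and 10 of them were followed here through a short-term fast in mice: Slc2a1, Slc2a2, Slc2a3, Slc2a4, Slc2a5, Slc2a8, Slc2a9, Slc2a10, Slc2a12 and Slc2a13. Members were the rows of the deposited count table that carry one of these gene symbols, 10 of 53686 rows, and each symbol had 1 row. The table covers 9 organs of 18 adult male C57BL/6J mice aged 8 to 9 weeks, with no transgene. Mice of the 0 h group were fed ad libitum, and food was taken away 2, 8, 12, 18 or 22 h before killing in the other 5 groups, with 3 mice in each group. All mice were killed at the same time of day, so that the 18 and 22 h fasts began in the dark phase and the shorter ones in the light phase. The organs were olfactory bulb (OB), brain without bulb, cerebellum and brainstem (BRN), cerebellum (CBL), brainstem (BST), stomach (STM), liver (LIV), interscapular brown fat (iBAT), perigonadal white fat (pgWAT) and posterior-subcutaneous white fat (psWAT). Each mouse gave all 9 organs, and all but 5 libraries were retained.

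These transporters move hexoses across membranes down their gradient, and each tissue uses its own set. GLUT1 (Slc2a1) carries glucose across the blood-brain barrier and GLUT3 (Slc2a3) into neurons. GLUT2 (Slc2a2) is the low-affinity carrier by which hepatocytes take up and release glucose. GLUT4 (Slc2a4) waits in vesicles of muscle and fat cells and reaches the surface when insulin acts. GLUT5 (Slc2a5) carries fructose, GLUT9 (Slc2a9) urate, and HMIT (Slc2a13) couples myo-inositol to protons. The products of Slc2a8, Slc2a10 and Slc2a12 lie largely on internal membranes. In fasting, insulin falls, the liver turns from glucose uptake to glucose release, and fat and muscle spare glucose.

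Sequences upstream of the start are shown for the most organ-bound member, Slc2a2, and for the member with the largest called change, Slc2a5. Both come from RefSeq on GRCm38.p6, plus strand, 5′ to 3′, and stop before the transcribed part in RefSeq and in Gencode. Capitals mark a CCAAT box (CCAAT or ATTGG) in the first, which spans chr3:28697653-28697902, and a GC box (GGGCGG or CCGCCC) in the second, which spans chr4:150119094-150119282.
Slc2a2: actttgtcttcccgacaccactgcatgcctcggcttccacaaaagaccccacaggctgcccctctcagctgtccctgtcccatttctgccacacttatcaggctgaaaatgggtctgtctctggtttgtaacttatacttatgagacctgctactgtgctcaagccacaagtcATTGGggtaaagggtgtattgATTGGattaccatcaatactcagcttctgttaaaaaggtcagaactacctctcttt
Slc2a5: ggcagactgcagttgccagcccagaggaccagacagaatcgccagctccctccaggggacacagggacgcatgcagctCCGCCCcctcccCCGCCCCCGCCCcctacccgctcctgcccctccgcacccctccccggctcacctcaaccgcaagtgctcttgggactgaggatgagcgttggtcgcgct
The Slc2a2 stretch held 2 CCAAT boxes and no GC box, with a GC content of 47.2%. The Slc2a5 stretch held 3 GC boxes, 2 of them adjoining, and no CCAAT box. Both strands were searched for these motifs and for the E-box CACGTG and the TATA box TATAAA, over the 250 bases before the RefSeq start. Of the 10 members 8 had an entry, and the GC box occurred in 4 of the 8 and the CCAAT box in 3. Of all 32851 promoters of that length 32.7% held a GC box and 33.8% a CCAAT box. No member held an E-box or a TATA box in this window, against 6.02% and 12.4% of all promoters. Slc2a3 and Slc2a4 had no entry. A match is given as a description only.

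Levels are given in CPM, the count of a gene over the library's total on a fixed scale. Totals of the retained libraries ranged from 3045845 to 27801717 counts with a median of 8735554, so that 3 counts, taken as the floor, equal 0.108 to 0.985 CPM. Counting error and the spread between 3 mice therefore set the precision of the members at a few CPM. Defining markers were present in the organs they mark, with no marker at 0: summed hepatocyte markers were 66542 to 94917 CPM in LIV and brown adipocyte markers 4785 to 17342 CPM in iBAT. Adipocyte markers varied from 420 to 24944 CPM in psWAT. Of the retained libraries, 2 lay nearer to the mean of another organ than to their own, psWAT 8 h replicate 1 to pgWAT and psWAT 12 h replicate 3 to CBL. The latter and 4 others, BRN 18 h replicate 2, iBAT 22 h replicate 2, pgWAT 18 h replicate 3 and pgWAT 22 h replicate 2, lay over 2 times as far from their organ's mean as its median library. All were kept, and several levels in these organs are given also without them. In bulk tissue, fewer cells of a type and less RNA per cell cannot be told apart.

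The organs differed in their leading transporter. Per kilobase of exon, so that genes can be compared, Slc2a4 held 90.5% of the summed level of the 10 members in iBAT, 68.1% in pgWAT, 59.1% in psWAT and 44.7% in STM. Slc2a2 held 68.8% of that sum in LIV. The psWAT libraries were mixed: per kilobase Slc2a1 stood above Slc2a4 in 2 h replicates 1 and 3, 12 h replicate 3 and 22 h replicate 1. Over all times Slc2a1 led in BST with 54.2%, in BRN with 35.4% and in CBL with 34.97%, and Slc2a3 led in OB with 38.2%. The order of these 2 varied with time: per kilobase Slc2a3 stood above Slc2a1 in all 3 fed libraries of CBL and of BRN, and Slc2a1 above Slc2a3 in all 3 OB libraries of 2 h. The highest level per kilobase of any member was that of Slc2a4 in iBAT, 125.2 ± 24.2 CPM per kb (SD, n = 17), against 41.9 ± 7.92 CPM per kb (SD, n = 18) for Slc2a2 in LIV. The plot of median levels by organ shows these blocks.

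**Figure D1:**
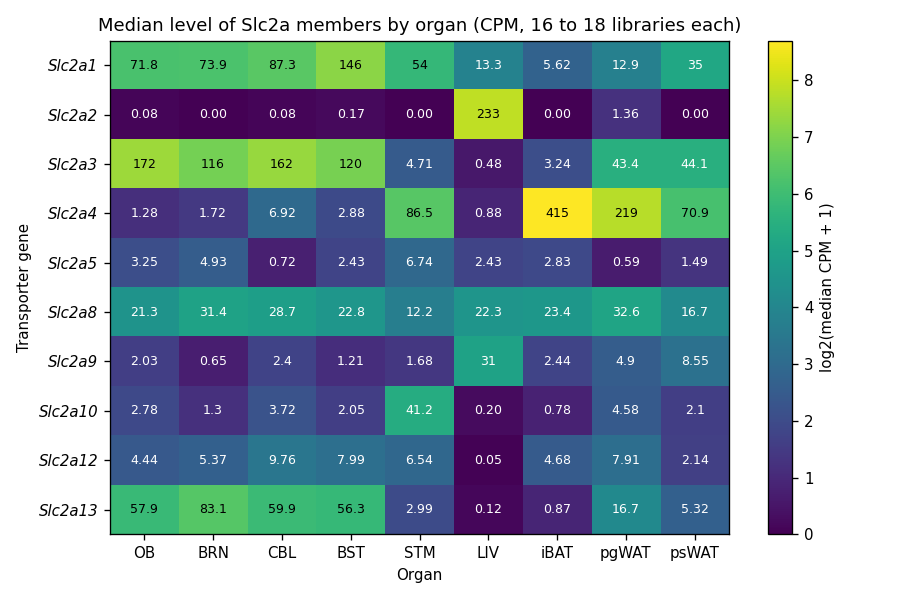
Median level of each Slc2a member (rows) in each organ (columns) over 16 to 18 retained libraries, printed in CPM and coloured by log2 of the median CPM plus 1. Slc2a2 stands at 233.2 CPM in LIV and at 1.36 CPM or less elsewhere, and Slc2a4 at 415 CPM in iBAT.

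The glucose carriers of the plasma membrane come first. Slc2a2 (chr3:28697903-28731359) was measured at 241 ± 45.6 CPM in LIV (SD, n = 18), from 170 to 329 CPM, and no library of another organ came above 12.3 CPM. In pgWAT its median was 1.36 CPM, and its highest value there, 12.3 CPM, was that of 18 h replicate 2. That library also held 187.6 CPM of summed small intestine markers, against 10.8 CPM or less in the other pgWAT libraries, and the part of this in the Slc2a2 value was not tested. In STM 9 of 17 libraries held no Slc2a2 count, and the highest level, 8.66 CPM, was that of 12 h replicate 2. In the remaining 6 organs its mean was 0.169 CPM or less, and no library there held more than 7 counts.

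Slc2a4 (chr11:69942539-69948188, minus strand) was highest in iBAT at 435 ± 84.1 CPM (SD, n = 17), followed by pgWAT at 214 ± 55.9 CPM (SD, n = 18), or 228 ± 40.8 CPM without the 2 pgWAT libraries that stand apart. The order went on with psWAT at 133.2 ± 111.2 CPM (SD, n = 17) and STM at 100.9 ± 36.4 CPM (SD, n = 17). The ranges of these 4 organs overlapped from one to the next. Then came a gap: CBL was at 7.18 ± 1.58 CPM (SD, n = 18), with its highest library at 10.7 CPM against 52.8 CPM for the lowest of STM. BST, at 2.95 ± 0.779 CPM (SD, n = 18), lay below every CBL library. BRN, LIV and OB had 1.88, 1.65 and 1.34 CPM on average and overlapped. Within psWAT its libraries spread from 5.84 to 336 CPM, where the summed adipocyte markers spread as given above. The 3 highest were 8 h replicate 1, the library nearest to pgWAT, 0 h replicate 1 and 8 h replicate 3, at 336.1, 311.9 and 293.3 CPM, and they held 24944, 16746 and 16963 CPM of adipocyte markers. Summed skeletal muscle markers stood at 30362, 21650, 19315 and 6032 CPM in psWAT 2 h replicate 2, 8 h replicate 2, 18 h replicate 3 and 22 h replicate 3, against an organ median of 418 CPM. These libraries held 145.3, 198.2, 182.5 and 229.8 CPM of Slc2a4, above the organ's median of 70.9 CPM, and the part of muscle and fat cells was not tested.

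Slc2a1 (chr4:119108711-119137983) and Slc2a3 (chr6:122727809-122801640, minus strand) were the carriers of the nervous organs. Slc2a1 was highest in BST at 146.7 ± 21.2 CPM (SD, n = 18), with CBL at 85.9 ± 21.3, BRN at 77.7 ± 14.0 and OB at 72.4 ± 19.97 CPM. It was also measured at 55.3 ± 9.27 CPM in STM (SD, n = 17) and lowest in iBAT, at 6.19 ± 2.11 CPM (SD, n = 17). Neighbours in this order overlapped throughout. Slc2a3 had 170 ± 10.8 CPM in OB, 162.4 ± 10.2 in CBL, 122.99 ± 26.1 in BRN and 120 ± 5.58 in BST. White fat had a second tier of 46.2 ± 19.98 CPM in pgWAT and 43.4 ± 20.8 CPM in psWAT, above every STM library. Without the libraries that stand apart these were 43.4 ± 12.0 and 39.5 ± 11.3 CPM, and the highest psWAT value, 112.6 CPM, was that of 12 h replicate 3. LIV was last at 0.511 ± 0.361 CPM, below every iBAT library.

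The fructose, urate and inositol carriers had patterns of their own. Slc2a5 (chr4:150119283-150144169) was low in all organs, with a mean of at most 6.11 CPM, and all neighbours in the order overlapped. The highest mean, that of iBAT, pools 3 fed libraries of 16.8 to 27.3 CPM with fasted ones of 6.61 CPM or less, and the iBAT median of 2.83 CPM lay below the medians of 6.74 CPM in STM and 4.93 CPM in BRN. Slc2a9 (chr5:38349273-38503143, minus strand) had 31.7 ± 5.99 CPM in LIV (SD, n = 18), where every library lay above the 16.0 CPM of the highest psWAT library. Its mean was 8.71 CPM in psWAT, 4.80 CPM in pgWAT and 2.42 CPM or less in the others. Slc2a13 (chr15:91267696-91573261, minus strand) was a nervous gene, with 82.7 ± 24.3 CPM in BRN, 68.98 ± 21.6 in CBL, 60.2 ± 10.7 in OB and 56.5 ± 3.74 in BST. All BST libraries lay above the pgWAT libraries, whose mean was 18.6 ± 8.74 CPM. In psWAT the mean of Slc2a13 was 9.66 CPM, and 7.01 CPM without the libraries that stand apart. Its highest psWAT value, 43.7 CPM, was that of 12 h replicate 3, which held 2694 CPM of cerebellar neuron markers against an organ median of 0.532 CPM.

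Of the members of internal membranes, Slc2a8 (chr2:32972990-32982083, minus strand) was the flattest in CPM, from 11.8 ± 3.14 CPM in STM to 35.3 ± 10.7 CPM in pgWAT. Without the libraries that stand apart pgWAT had 33.2 ± 5.76 CPM. In the edgeR fit below, which scales libraries by TMM factors, its log2 difference from the other organs was highest in LIV. It was 0.79 ± 0.0634 there and 0.55 ± 0.0639 in pgWAT (SE), so that orders by CPM and by that fit can differ. Slc2a12 (chr10:22645011-22704285) was highest in BST at 9.92 ± 5.47 CPM and in CBL at 9.59 ± 3.96 CPM, and lowest in LIV at 0.153 CPM. Slc2a10 (chr2:165503787-165519917) had 41.04 ± 15.9 CPM in STM, next to 6.26 CPM in pgWAT. That pgWAT mean fell to 4.51 CPM without the 2 pgWAT libraries that stand apart, 1 of which held 29.4 CPM.

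Each organ was then compared with the mean of the other 8 in 1 edgeR fit over 54 groups of organ and time, with Benjamini-Hochberg adjustment over 22113 genes and a call at an adjusted p under 0.05. Organs differ in most genes, so that these calls have a high background: 67.5% of genes were called in OB, 66.2% in BRN, 67.5% in CBL, 69.6% in BST, 61.2% in STM, 65.6% in LIV, 59.7% in iBAT, 63.4% in pgWAT and 64.7% in psWAT. For the members 71 of 90 contrasts were called, and 10 could not be estimated because a group held no count of Slc2a2 or Slc2a9. Of the contrasts above the other organs that rest on counts in all groups, the largest were iBAT Slc2a4, higher by 5.87 ± 0.122 (log2 fold change ± SE), and STM Slc2a10, higher by 4.92 ± 0.115. LIV Slc2a9 was called higher too, and no fold is given for it because the BRN libraries at 18 h held no count. BRN Slc2a13 was higher by 3.26 ± 0.103, OB Slc2a3 by 2.74 ± 0.0714 and BST Slc2a1 by 2.06 ± 0.0651. Of the lower ones, Slc2a3 in LIV had a log2 fold change of -5.75 ± 0.157, from 0 to 12 counts in a LIV library. LIV Slc2a13 and Slc2a12 were called lower too, and no fold is given because their LIV libraries held at most 4 and 7 counts.

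The fat depots, the most alike of the non-nervous organs, differed in nearly every member. In the pairs iBAT against pgWAT, iBAT against psWAT and pgWAT against psWAT, 8, 9 and 10 of 10 members were called, where 63%, 69% and 69.5% of all genes were. Slc2a4 was higher in iBAT than in pgWAT by 1.59 ± 0.211 and than in psWAT by 2.75 ± 0.229 (log2 fold change ± SE). Slc2a5 was higher in iBAT by 2.79 ± 0.328 and 1.71 ± 0.322. Slc2a13 was lower in iBAT, with values of -4.06 ± 0.216 and -2.76 ± 0.229, and Slc2a3 too, with -2.92 ± 0.134 and -2.54 ± 0.135. For Slc2a8 iBAT and pgWAT had a log2 difference of -0.00139 ± 0.0907, and the adjusted p was 1. Their mean CPM, not scaled by TMM factors, were 23.1 and 35.3. White fat RNA was extracted with another kit than the RNA of the other organs, so that kit and depot cannot be told apart between iBAT and white fat.

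The effect of a long fast was tested in each organ as the mean of 18 and 22 h against 0 h, with edgeR's quasi-likelihood test on all 6 times and adjustment over all genes of the organ. Of 80 tests of a member in an organ 6 were called: Slc2a5 and Slc2a4 fell in iBAT, Slc2a2 and Slc2a9 fell in LIV, and Slc2a3 and Slc2a4 rose in STM. A further 15 had an unadjusted p under 0.05 and did not pass the adjustment. The other 10 combinations lay under the filter on low counts: Slc2a2 in OB, BRN, CBL, BST, iBAT and psWAT, and Slc2a3, Slc2a10, Slc2a12 and Slc2a13 in LIV. The share of all genes called was 20.9% in iBAT, 10.6% in LIV and 15.3% in STM, and members were called in 2 of 9, 2 of 6 and 2 of 10 tests. It was 11.2% in BRN, 1.95% in OB, 0.344% in CBL, 0.0596% in BST, 0.00609% in pgWAT and 0% in psWAT, and no member was called in these 6 organs. The median log2 fold change over the 80 tests was 0.03. The plot of long fasts against fed mice shows all tests except STM Slc2a2, which had no count in any of the 6 long-fast libraries.

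**Figure D2:**
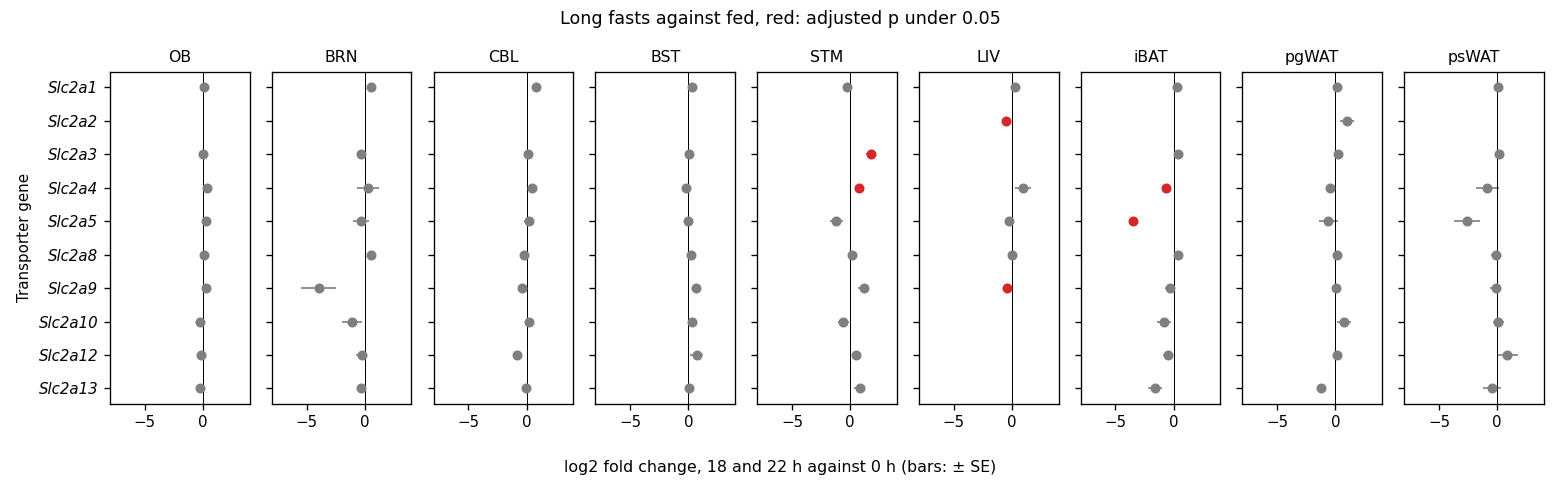
Log2 fold change of each Slc2a member (rows), mean of 18 and 22 h against 0 h, in each organ (panels), with bars of ± SE and red points for an adjusted p under 0.05. Red points stand in STM (Slc2a3, Slc2a4), LIV (Slc2a2, Slc2a9) and iBAT (Slc2a4, Slc2a5) only.

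In brown fat the fructose carrier Slc2a5 fell sharply, and had done so by 2 h. The 3 iBAT libraries at 0 h had 19.3, 16.8 and 27.3 CPM of Slc2a5. After 2 h the values were 6.61, 2.83 and 3.29 CPM, after 8 h 2.696, 2.17 and 2.25 CPM, and after 12 h 1.74, 3.29 and 3.38 CPM. The 18 h mice had 5.18, 1.501 and 2.34 CPM, and the 2 retained 22 h mice 2.22 and 0.905 CPM. No fasted library reached the lowest fed one. The log2 fold change of long fasts was -3.46 ± 0.397 (SE; adjusted p = 0.000168, edgeR), and the single times against the same 0 h libraries were all called, with values from -2.46 at 2 h to -4.04 at 22 h. The call held without each library of the 3 times in turn, with log2 fold changes from -3.80 to -3.10. Summed brown adipocyte markers were 6889 to 10195 CPM at 0 h and 8220 to 17342 CPM after the long fasts, with medians of 7729 and 8692 CPM.

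In the white depots edgeR gave no call for Slc2a5, while the joint test of all times by DESeq2 called it in psWAT (adjusted p = 0.00728). In psWAT the 0 h libraries held 22.4, 11.7 and 1.98 CPM of Slc2a5, and all later ones 4.61 CPM or less except 22 h replicate 3 at 8.54 CPM. The log2 fold change of long fasts was -2.59 ± 1.08 (SE; adjusted p = 0.936, edgeR), and the groups overlapped. The psWAT libraries with most Slc2a5 were those with most brown adipocyte markers: the summed list stood at 1688 and 1225 CPM in 0 h replicates 1 and 2 and at 1249 CPM in 22 h replicate 3, but at 25.95 CPM in 0 h replicate 3. The organ's median was 73.5 CPM, and the part of these cells in the Slc2a5 values was not tested. In pgWAT, Slc2a5 had 1.53, 1.93 and 1.07 CPM at 0 h and from 0 to 3.63 CPM after the long fasts, with no call (adjusted p = 0.686, edgeR).

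**Figure D3:**
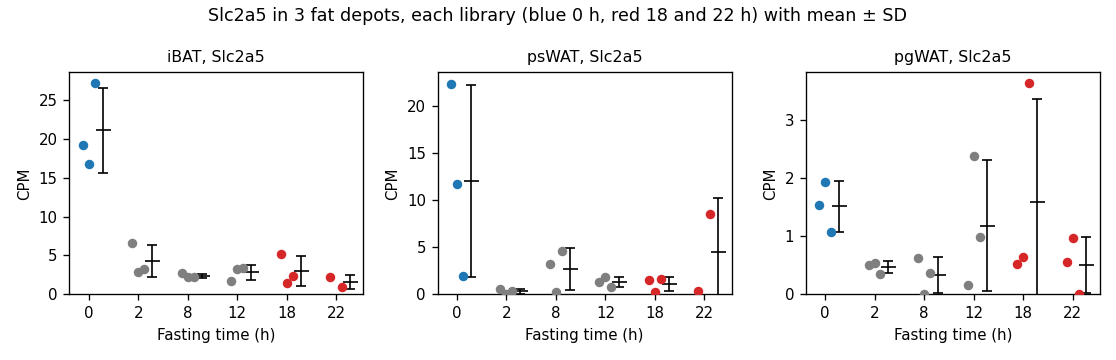
Slc2a5 in CPM (vertical axis, own scale in each panel) by fasting time in h in iBAT, psWAT and pgWAT. Points are libraries (blue 0 h, red 18 and 22 h), black marks the mean ± SD. All fasted iBAT libraries lie at 6.61 CPM or less, under the 16.8 CPM of the lowest fed one.

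The insulin-responsive carrier Slc2a4 fell in iBAT and rose in STM. In iBAT it had 510, 482 and 662 CPM at 0 h, 436, 365 and 363 CPM at 18 h and 364 and 415 CPM at 22 h. All 5 long-fast libraries lay below the fed ones, with a log2 fold change of -0.63 ± 0.155 (SE; adjusted p = 0.0115, edgeR). Values at 2 h were already 379, 390 and 395 CPM, and at 12 h 451, 469 and 536 CPM. Only 12 h replicate 3 of these lay among the fed mice, and it held 9874 CPM of summed skeletal muscle markers against an organ median of 851 CPM, whose part was not tested. With the 0 and 2 h mice together as reference the value was -0.30 (adjusted p = 0.0775, edgeR), and 18 h alone did not pass (adjusted p = 0.153), while 22 h alone did (adjusted p = 0.0194). In STM the 0 h libraries had 86.5, 82.1 and 52.8 CPM, the 18 h ones 136.2, 107 and 147.8 CPM and the 22 h ones 108, 137.9 and 197 CPM. The groups did not overlap, and the log2 fold change was 0.75 ± 0.186 (SE; adjusted p = 0.0158, edgeR). Neither 18 h alone (0.63, adjusted p = 0.0509) nor 22 h alone (0.86, adjusted p = 0.0602, edgeR) passed, nor did the average in a fit on the 0, 18 and 22 h libraries (adjusted p = 0.0704). Summed skeletal muscle markers in STM moved with it, 219 to 1517 CPM at 0 h against 1973 to 3997 CPM after the long fasts, also without overlap. The 0 h library with the fewest muscle markers, replicate 3, was also the lowest in Slc2a4, and without it the adjusted p was 0.0902. The part of muscle in the STM value was not tested.

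The neuronal carrier Slc2a3 rose in STM from a low level. Its 0 h values were 1.59, 3.65 and 1.24 CPM, against 4.66, 7.02 and 15.8 CPM at 18 h and 4.71, 9.73 and 8.32 CPM at 22 h. The groups did not overlap, and the log2 fold change was 1.81 ± 0.424 (SE; adjusted p = 0.0125, edgeR). It lost the call without 0 h replicate 1 (adjusted p = 0.0533) or 0 h replicate 3 (adjusted p = 0.0758). It passed at 18 h alone (1.91, adjusted p = 0.0146) and not at 22 h alone (1.70, adjusted p = 0.0755, edgeR) or in a fit on the 0, 18 and 22 h libraries (adjusted p = 0.0549). Neuron markers summed to 13.3 to 25.3 CPM in the fed STM libraries and 41.4 to 70.0 CPM in the long-fast ones, and microglia and macrophage markers to 28.1 to 33.7 CPM and 39.4 to 53.9 CPM. The part of these cells in the Slc2a3 value was not tested.

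In liver Slc2a2 and Slc2a9 fell after the long fasts. Slc2a2 had 310, 329 and 202 CPM at 0 h, 239, 215 and 196.1 CPM at 18 h and 212, 174 and 220 CPM at 22 h. The groups overlapped through 0 h replicate 3, and the log2 fold change was -0.51 ± 0.125 (SE; adjusted p = 0.0129, edgeR). Values at 2 h were 312, 250 and 260 CPM and at 8 h 259, 265 and 274 CPM, and single times were called from 12 h on, with log2 fold changes of -0.48 at 12 h, -0.50 at 18 h and -0.53 at 22 h. Without 0 h replicate 1 or replicate 2 the adjusted p was 0.083 and 0.121. Summed hepatocyte markers were 76975 to 87381 CPM at 0 h and 76678 to 94917 CPM after the long fasts.

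Slc2a9 in LIV did not fall in a simple course. It had 43.2, 39.6 and 34.2 CPM at 0 h, 34.17, 31.1 and 26.8 CPM at 2 h, 30.9, 31.0 and 33.2 CPM at 8 h, 25.3, 27.1 and 21.8 CPM at 12 h, 39.6, 38.4 and 35.7 CPM at 18 h and 27.9, 27.2 and 24.3 CPM at 22 h. The 18 h libraries thus lay among the fed ones, and those of all other times below the lowest fed one. The long-fast average was called with a log2 fold change of -0.39 ± 0.106 (SE; adjusted p = 0.0227, edgeR), but 18 h alone was not (-0.17, adjusted p = 0.416), while 12 and 22 h were, with -0.70 and -0.61. With 0 and 2 h together as reference the average was not called (-0.21, adjusted p = 0.111), nor with no filter on low counts (adjusted p = 0.0625) or in a fit on the 0, 18 and 22 h libraries (adjusted p = 0.0555, edgeR). Without 0 h replicate 1 or replicate 2 the long-fast average lost its call, with adjusted p of 0.139 and 0.0934.

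In LIV, STM and OB the lane number in the library names changes with fasting time, and only the 8 h group holds both lanes. In pgWAT too, all 0 h libraries were on 1 lane and all long-fast ones on another. In BRN the number that opens the library names is of 1 series in all 0 h libraries and of another in all long-fast ones, so that series and long fast cannot be told apart there. With lane as a covariate the LIV and STM calls were lost: Slc2a2 had -0.65 (adjusted p = 0.233), Slc2a9 -0.56 (adjusted p = 0.211), STM Slc2a3 1.33 (adjusted p = 0.748) and STM Slc2a4 0.39 (adjusted p = 0.838, all edgeR). Lane and fasting time cannot be told apart in these organs, since no lane holds both 0 h and long-fast libraries. With the covariate iBAT Slc2a5 had -2.97 and iBAT Slc2a4 -0.69. Each retained 22 h library of iBAT was the only retained one of that organ on its lane. That fit leaves 22 h to replicate 2 alone, so that lane and 22 h cannot be told apart there either.

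**Figure D4:**
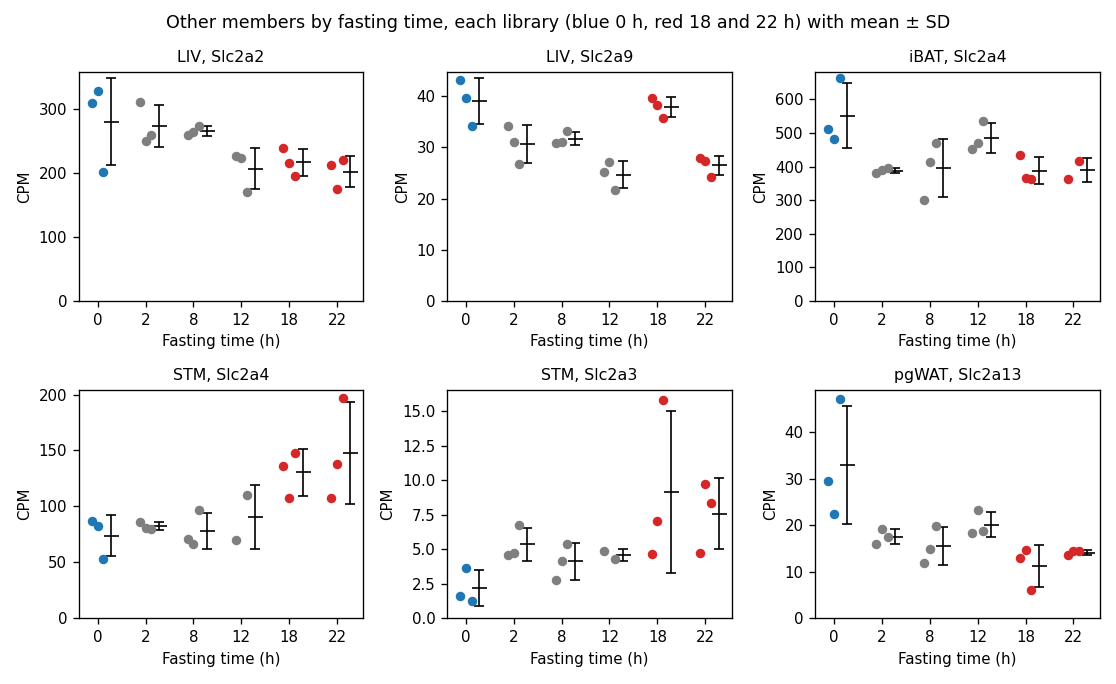
CPM (vertical axis from 0) by fasting time in h for the other called members and for Slc2a13 in pgWAT. Points are libraries (blue 0 h, red 18 and 22 h), black marks the mean ± SD. The 18 h libraries of LIV Slc2a9, 35.7 to 39.6 CPM, stand apart from those of 12 and 22 h.

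Slc2a13 in pgWAT came close to a call. Its 0 h values, 29.5, 22.4 and 47.03 CPM, lay above all long-fast values, which ran from 6.05 to 14.6 CPM. The log2 fold change was -1.28 ± 0.258 (SE; adjusted p = 0.0727, edgeR). DESeq2 gave an adjusted p of 0.001 for it, and without 22 h replicate 2, a library that stands apart and holds 539 CPM of testis and epididymis markers, edgeR gave 0.0377. In CBL, Slc2a1 rose at 22 h: the 0 h libraries had 55.9, 65.4 and 55.8 CPM and the 22 h ones 110, 93.5 and 115.7 CPM, with a log2 fold change of 0.83 (adjusted p = 0.044, edgeR). With the 18 h libraries, at 85.9, 66.2 and 137.9 CPM, the average of both times was 0.77 ± 0.183 (SE; adjusted p = 0.076, edgeR). DESeq2 called that average (adjusted p = 0.0086), and so did edgeR without 18 h replicate 2 (adjusted p = 0.0152) or 18 h replicate 3 (adjusted p = 0.0351). CBL Slc2a4 was called at 22 h as well, with 0.63 (adjusted p = 0.0441), from 5.88, 7.25 and 5.67 CPM at 0 h to 10.0, 8.58 and 10.7 CPM. Depth moved with time in CBL, from 20396385 to 22071004 counts in the fed libraries to between 6487419 and 9487976 in the fasted ones, and its part was not tested. Endothelial markers in CBL summed to 51.6 to 66.1 CPM at 0 h and 59.2 to 131.2 CPM after the long fasts, and their part was not tested. In iBAT, Slc2a13 was called at 22 h alone (adjusted p = 0.0208), from 0.863, 1.45 and 1.25 CPM at 0 h. It had no count in 22 h replicate 2, the shallowest iBAT library and one that stands apart, which allows up to 0.951 CPM, and 0.226 CPM in replicate 3. Slc2a12 in iBAT, with no call (adjusted p = 0.399), was called without 22 h replicate 3 (adjusted p = 0.00104, edgeR), which leaves 22 h with replicate 2 alone and no count. In BRN the 0 h values of Slc2a3, 158, 147.7 and 172 CPM, lay above the long-fast ones, 74.0 to 139.4 CPM, with no call (-0.37 ± 0.151 SE; adjusted p = 0.114, edgeR). Without 18 h replicate 3 it was called (-0.46, adjusted p = 0.0363, edgeR). BRN Slc2a1, with 0.56 ± 0.217 (SE; adjusted p = 0.093), was called without 18 h replicate 3 (0.77, adjusted p = 0.00849) or 22 h replicate 3 (0.67, adjusted p = 0.0206, all edgeR). In BRN these contrasts also set 1 series of library names against the other.

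A joint test of all 6 times asked whether a member varied between times in any way. It called 9 of 80 combinations, among them 4 that the long-fast test had not: Slc2a1 and Slc2a13 in OB, Slc2a13 in CBL and Slc2a4 in LIV. The share of all genes called was 15.4% in OB, 2.99% in CBL, 16% in LIV, 29% in iBAT and 6.55% in STM, and 2, 1, 3, 2 and 1 members were called there. It was 0.00597% in BRN, 0.107% in BST, 0% in pgWAT and 0% in psWAT, with no member called by edgeR. Without 22 h replicate 3 edgeR called BRN Slc2a13 (adjusted p = 0.0438). It also called CBL Slc2a1 without 18 h replicate 3 (adjusted p = 0.00321) and LIV Slc2a1 without 18 h replicate 1 (adjusted p = 0.0369, edgeR). DESeq2 called Slc2a1 in BST (adjusted p = 0.0148), Slc2a13 in pgWAT (adjusted p = 0.00993) and Slc2a5 in psWAT, as well as Slc2a1 in CBL (adjusted p = 0.0406) and Slc2a3 in STM (adjusted p = 0.0162). With no filter on low counts edgeR called BST Slc2a1 (adjusted p = 0.0096) and STM Slc2a3 (adjusted p = 0.035) too. The joint call of iBAT Slc2a4 was lost in that fit (adjusted p = 0.0687, edgeR).

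In the nervous organs the joint calls went with high values at 2 or 8 h. OB Slc2a1 had 74.7, 72.6 and 55.4 CPM at 0 h, 97.4, 88.7 and 133.2 CPM at 2 h and 57.9, 56.4 and 51.7 CPM at 8 h (joint F = 8.66; adjusted p = 0.00944, edgeR). The 2 h libraries lay above those of 0 and 8 h. OB Slc2a13 was highest at 8 h, with 62.9, 82.3 and 79.3 CPM, and lowest at 18 h, with 39.8, 48.1 and 51.4 CPM (joint F = 11.0; adjusted p = 0.00309, edgeR). It was also called at 18 h alone (-0.35, adjusted p = 0.0372) and after long fasts against 0 and 2 h together (-0.33, adjusted p = 0.0177, edgeR). CBL Slc2a13 had 48.98, 43.6 and 75.8 CPM at 0 h, then 88.6, 91.9 and 84.8 CPM at 2 h and 84.1, 110 and 113.6 CPM at 8 h. It stood at 59.8, 56.9 and 52.8 CPM at 12 h and at 46.7, 56.4 and 51.2 CPM at 22 h (joint F = 14.0; adjusted p = 0.0158, edgeR). The 2 and 8 h libraries of CBL lay above all others. Each of these 3 calls held without each library in turn. With lane as a covariate both OB calls held too (adjusted p = 0.0297 for Slc2a1 and 0.0142 for Slc2a13, edgeR). CBL was run on 1 lane.

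**Figure D5:**
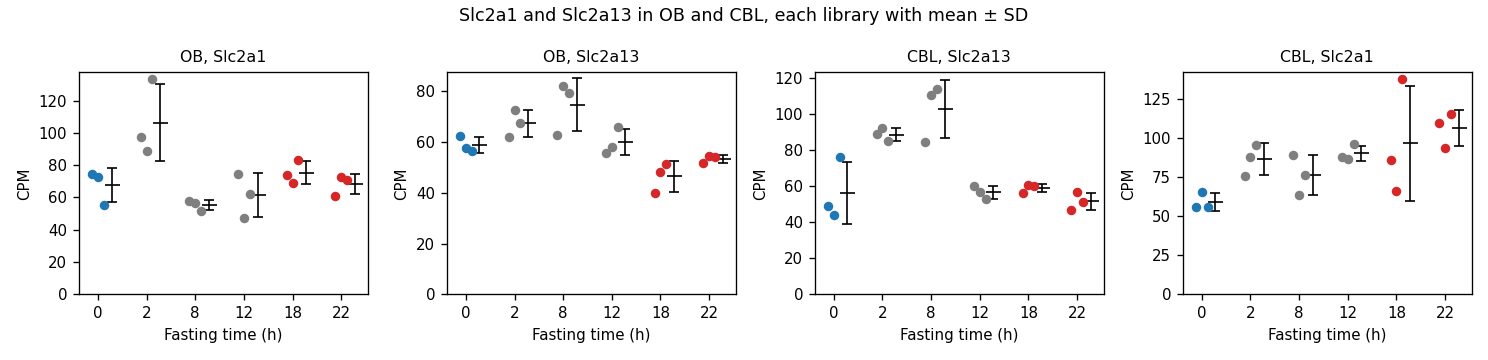
Slc2a1 and Slc2a13 in OB and CBL in CPM (vertical axis from 0) by fasting time in h. Points are libraries (blue 0 h, red 18 and 22 h), black marks the mean ± SD. The 2 and 8 h libraries of CBL Slc2a13, 84.1 to 113.6 CPM, lie above all others there.

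LIV Slc2a4 was highest at 12 h, where replicates 1 and 2 had 8.10 and 3.41 CPM and replicate 3 had 0.763 CPM (joint F = 4.34; adjusted p = 0.0485, edgeR). Replicates 1 and 2 also held 675 and 258 CPM of skeletal muscle markers, against an organ median of 22.4 CPM, and the part of this was not tested. The call was lost without any 1 of 14 of the 18 libraries, all but 8 h replicate 3, 12 h replicate 3, 18 h replicate 1 and 22 h replicate 1, with an adjusted p of 0.272 without 12 h replicate 1. The joint calls of the other members already described as changed after long fasts were iBAT Slc2a5 (adjusted p = 0.000263), LIV Slc2a9 (adjusted p = 0.0059), LIV Slc2a2 (adjusted p = 0.0263), iBAT Slc2a4 (adjusted p = 0.0301) and STM Slc2a4 (adjusted p = 0.0313, all edgeR). LIV Slc2a2 lost this call without 0 h replicate 1, 0 h replicate 2 or 22 h replicate 2, with adjusted p of 0.0667, 0.0629 and 0.0555. STM Slc2a4 lost it without any 1 of 7 libraries, each of 2 h, 8 h replicate 1, 18 h replicates 1 and 3 and 22 h replicate 3, with adjusted p up to 0.0854. For iBAT Slc2a4 the 8 such libraries were 0 h replicates 1 and 3, 2 h replicates 1 and 2, 8 h replicate 2, 18 h replicates 2 and 3 and 22 h replicate 2, with adjusted p up to 0.109. With lane as a covariate the joint calls of LIV Slc2a2 (adjusted p = 0.468), LIV Slc2a4 (adjusted p = 0.097) and STM Slc2a4 (adjusted p = 0.922) were lost. That of LIV Slc2a9 held (adjusted p = 0.0363, all edgeR). In iBAT, where lane and 22 h cannot be told apart, that of Slc2a4 was lost and that of Slc2a5 held. The replicate block also ended the joint calls of LIV Slc2a4 (adjusted p = 0.0899) and STM Slc2a4 (adjusted p = 0.0551, edgeR).

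Whether the effect of a long fast differed between the 9 organs was tested for each member in the fit of 54 groups, in which 26.5% of all genes were called. It was called for 5 of 10 members, Slc2a2, Slc2a3, Slc2a5, Slc2a9 and Slc2a13. The call of Slc2a2 says little, since it lies under the filter in 6 of the 9 organs and several groups held no count of it. For Slc2a4, which rose in STM and fell in iBAT, the test did not pass (F = 1.56; adjusted p = 0.289, edgeR), nor did it for Slc2a1, Slc2a8, Slc2a10 and Slc2a12.

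Genes that act with the transporters were taken from lists of other glucose transporters, sugar kinases, GLUT4 vesicles, insulin signalling, arrestins and transcription factors. In iBAT 18 of 61 tested were called after long fasts, 3 higher and 15 lower. Of all genes 20.9% were called there, 1149 higher and 1888 lower. In LIV 6 of 70 were called, against 10.6% of all genes, in STM 8 of 69, against 15.3%, in BRN 9 of 66, against 11.2%, and in OB 2 of 66, against 1.95%. Among the iBAT calls Hk2, the hexokinase that traps glucose in insulin-responsive tissue, fell by 2.43 ± 0.313 (log2 fold change ± SE). There Mlxipl, the sugar-responsive factor ChREBP, fell by 1.93 ± 0.253. Also in iBAT, Arrdc4, an arrestin of the Txnip family, fell by 1.70 ± 0.299 and Tbc1d4, which holds GLUT4 vesicles back, by 1.09 ± 0.203. Pik3cb, a kinase subunit of insulin signalling, fell there by 1.04 ± 0.221. In the sugar kinase list 2 of 10 genes tested in iBAT were higher and 2 lower, and in the transcription factor list 1 of 16 was higher and 6 lower there. In LIV Tkfc, of fructose breakdown, fell by 0.48 ± 0.126 and G6pc3 rose by 0.59 ± 0.159, while Pik3r1 and Mlx had -0.39 and -0.36. In STM Stx4a, the GLUT4 vesicle syntaxin, rose by 0.76 ± 0.196 and Stom by 0.80 ± 0.235, and Mlx, Vamp3 and Snap23 had -0.72, -0.73 and -0.71. In BRN Pdpk1 and Irs2 of insulin signalling had -1.11 and -0.99, Mef2d -0.60, Vamp2 0.54 and Slc2a6, a further family member, 1.12 ± 0.282, across the same change of library series. In OB Tbc1d1 had -0.42 and Klf15 0.39. No gene of these lists was called in CBL, BST, pgWAT or psWAT.

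The genes most like each member across the 54 group means were found by Pearson's r of log2 CPM, over points that share mice, and are given as a description. Slc2a4 was most like Hk2 (r = 0.968), followed by Gm10603 and Gpr160. Slc2a2 was most like Agxt2 (r = 0.99), Keg1 and Cyp2d9, and Slc2a9 like Nmrk1, Whamm and Slc46a3. Slc2a3 was most like Ap3m2, Txndc16 and Apod, Slc2a13 like Rtl8c, Olfm1 and Pea15a, and Slc2a1 like Robo1, Nrg1 and Mfsd6. For Slc2a5 the highest value was 0.772, with Pld6, then Bysl and Ppif. Slc2a8 was most like Emc9, St3gal3 and Bphl, Slc2a10 like Creb3l1, Prom2 and Ror2, and Slc2a12 like Rgma, Plxdc2 and Oxct1. Among the members the pairs most alike were Slc2a3 and Slc2a13 (r = 0.952) and Slc2a2 and Slc2a9 (r = 0.818).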

How the data were processed

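Each library was 1 organ of 1 mouse. The authors sequenced stranded mRNA libraries in pairs, aligned them with TopHat2 2.1.1 to GRCm38.p5, kept uniquely mapped reads, counted them over Gencode exons with HTSeq 0.9.1 and deposited the counts unnormalized for all 162 libraries. Whether the counting used strand is not given in the sources used here. The 5 libraries that the study left out were left out, and all columns were matched to samples (0 unmapped). CPM is the count over the library's total. In each organ, genes at a CPM equal to 10 counts in the median library, in at least 3 libraries, were tested with edgeR 4.0.16 (TMM, robust quasi-likelihood) in R 4.3.3, with Benjamini-Hochberg adjustment and a call at an adjusted p under 0.05. Organs were compared in 1 fit of 54 groups. p-values measure the spread between 3 mice a time. The code was tested on simulated data.

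The members and gene lists were chosen with earlier results of these data known. Genes named beside the members are up to 5 per organ with the smallest adjusted p among the lists, of which 1 gene is not reported here, and for each member the 3 genes most alike. Alternatives were DESeq2 1.42.0, RLE factors, filter, libraries, lane, reference times, gene length, a fold limit and a replicate block. Leaving out the libraries that stand apart was added after seeing the data. Gene positions and lengths come from Gencode M21, a later release than the M16 the authors used. Python 3.11.15 with pandas 2.3.3 compiled the results, and matplotlib 3.10.9 drew them.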

Additional observations from a re-analysis of the deposited data

Results flagged for a closer look

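The effect of a long fast, 18 and 22 h against 0 h, differed between the 9 organs for 5 members in the joint edgeR fit. For Slc2a9 the test gave F = 5.11 (adjusted p = 0.000381), with log2 fold changes per organ of -0.39 in LIV, where it was called, and of 1.17 in STM, where it was not. Without 0 h replicate 2 the STM value was 1.90 and was called (adjusted p = 0.0296, edgeR). In BRN Slc2a9 had 1.88, 0.976 and 2.48 CPM at 0 h, no count in both 18 h libraries and 0.345, 0.54 and 1.10 CPM at 22 h, so that no fold is given, and this group of no counts enters the test. For Slc2a3 it gave F = 4.56 (adjusted p = 0.00105), between 1.81 in STM and -0.37 in BRN. For Slc2a5 it gave F = 4.48 (adjusted p = 0.00122), between -3.46 in iBAT and 0.25 in OB. For Slc2a2 it gave F = 3.03 (adjusted p = 0.0226), where several groups outside LIV held no count. For Slc2a13 it gave F = 2.87 (adjusted p = 0.0284), with -1.28 in pgWAT and 0.81 in STM, neither of them called in its organ.

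In the left-out library iBAT 22 h replicate 1, which held 2700482 counts, Slc2a9 stood at 10.7 CPM from 29 counts. The retained iBAT libraries had 0.86 to 4.12 CPM. Of all fits, the library enters those on all deposited libraries only.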

How the results depend on the processing

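The members called for the long fast numbered 6. All 6 kept the call with RLE size factors, the length trend removed or DESeq2, which called 8 in all, and LIV Slc2a9 lost it with no filter on low counts. With lane as a covariate the 4 calls of LIV and STM were lost. The iBAT lane fit leaves 22 h to replicate 2, and there Slc2a12 had -4.22, against -4.23 without 22 h replicate 3. In fits on the 0, 18 and 22 h libraries 3 were called, since LIV Slc2a9 (adjusted p = 0.0555), STM Slc2a3 (adjusted p = 0.0549) and STM Slc2a4 (adjusted p = 0.0704, edgeR) lost the call, and 2 passed a log2 fold limit of 1. Leaving out each library in turn gave counts of 4 to 8, and leaving out the libraries far from their organ mean, a choice made after seeing the data, gave 7. The smaller fits hold fewer libraries. In the lane fits, lane and long fast in LIV and STM, and lane and 22 h in iBAT, cannot be told apart. The joint calls over the times numbered 9 in edgeR, from 7 to 10 without each library in turn, and 14 with DESeq2, where all 9 were kept and the cause of the rise was not tested. With lane, 4 of the 8 joint calls it could be fitted for were kept, and the count was 6 with CBL Slc2a13 and a new call of iBAT Slc2a12. The counts of the organ comparison were 67 to 82 against 71, except 46 with the fold limit, and those of the fat depots 20 to 28 against 27. Members that differed by organ in their long-fast effect numbered 4 to 6 against 5, and Slc2a13 (adjusted p = 0.0726 with all libraries) and Slc2a2 (adjusted p = 0.0527 with no filter) lost the call in edgeR.

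With the 0 h libraries alone, 4 organ differences changed sign. Slc2a5 in psWAT against the other organs went from -0.64 to 1.58 (adjusted p = 0.000234, edgeR), Slc2a8 in BRN from 0.31 to -0.043, Slc2a9 in iBAT against pgWAT from -0.40 to 0.090, and Slc2a10 in iBAT against psWAT from -0.63 to 0.36. The last 3 had adjusted p of 0.904, 0.884 and 0.454 (edgeR). No other alternative turned the direction of a called member.

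The replicate block gave 6 calls for the long fast and 7 for the joint test, where LIV Slc2a4 (adjusted p = 0.0899) and STM Slc2a4 (adjusted p = 0.0551, edgeR) lost the call. It changed no other call, also with the mouse as the block between organs. For that block, libraries of the same time and replicate number were taken as the same mouse, which the sample titles do not state. Within an organ the numbers are names only: same-numbered libraries had a mean correlation from -0.0802 in psWAT to 0.158 in iBAT. The joint tests have no fold to limit. Low counts, at or near the floor of 3, limit Slc2a2 outside LIV and pgWAT, Slc2a3, Slc2a10, Slc2a12 and Slc2a13 in LIV and Slc2a9 in BRN. Some libraries lay there too for other members, among them Slc2a5 in CBL and Slc2a10 and Slc2a13 in iBAT.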
